A study of Mus musculus with 23 samples.

Results

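The dystrophin-glycoprotein complex was followed through 8 of its genes in the C2C12 mouse muscle line. They were taken by symbol from tables of 32793 rows, which held all 8: Dmd (dystrophin), Utrn (utrophin), Dag1 (dystroglycan), Sgca, Sgcb and Sgcd (alpha-, beta- and delta-sarcoglycan), Sspn (sarcospan) and Sntb1 (beta-1-syntrophin). C2C12 is a myoblast line whose cells fuse into myotubes when serum is reduced. Control cells, called WT in the sample titles, and cells of genotype Runx1KO were sequenced while growing in 20% fetal bovine serum (day 0) and on days 1, 3 and 6 of differentiation in 2% horse serum. The series text gives the last time as day 5, and the titles are followed here. Each of the 8 groups had 3 poly(A) RNA libraries, except WT on day 0 with 2, and total estimated counts were 22197606 to 23684077 per library. No other allele or agent is named for either genotype. The labels do not say how the knockout was made, whether it is a single clone or whether libraries came from separate cultures, so p-values measure only the spread between these libraries.

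In muscle fibres the complex links the actin cytoskeleton to the basement membrane. Dystrophin binds actin inside the cell and the transmembrane beta subunit of dystroglycan, whose sugar-coated alpha subunit binds laminin outside. Sarcoglycans and sarcospan form a subcomplex in the membrane beside dystroglycan, and syntrophins and dystrobrevins are adaptors on the inner face that dock signalling proteins. Utrophin is the paralog of dystrophin, with a wider tissue range, and can occupy the same place. Loss of dystrophin causes Duchenne muscular dystrophy, and loss of the sarcoglycans causes limb-girdle forms.

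Transcripts of the complex rose as the cells differentiated, with dystrophin as the exception: its row was at or near 0 in every library while utrophin was abundant. Cells labelled KO carried more Dag1, Sgca, Sgcb and Sntb1 than WT by day 6, and less Sgcd on all 4 days. All 7 genes that could be tested were higher on day 6 than on day 0 in each genotype. Sntb1 had the largest genotype difference of the 7, 7.74-fold on day 6.

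A few facts of the series bear on these results. On each day Runx1 mRNA was higher where the label was KO, with log2 fold changes of 0.35 to 1.02. The knockout is thus not visible as a lower mRNA level of its target. Gene-level counts cannot show whether the transcript itself is altered, and groups are named below as labelled. Where on the gene the knockout acts is not given in the sources used here. All 5 myoblast markers listed (Myod1, Myf5, Cdh15, Pax7 and Des) exceeded 3 counts in each group. Their summed level was higher in labelled KO on day 0 (2306.8 to 2416.0 against 1596.7 to 1662.2 CPM), day 3 (2881.4 to 3151.7 against 2046.0 to 2157.7) and day 6 (2990.0 to 3502.9 against 1833.3 to 2194.6), with no overlap, and overlapped on day 1. The summed level of 10 myotube markers was 2.69 to 4.48 CPM (counts relative to the TMM-scaled library size) on day 0, and reached 1859.5 to 2157.0 CPM in WT and 10330.7 to 12894.1 CPM in labelled KO on day 6. The 5 fibroblast markers, of which Thy1 was at 0 in every group and Tcf21 in every group but WT on day 6, summed to 5472.7 to 7603.4 CPM in WT and 925.4 to 970.0 CPM in labelled KO on day 6. Smooth muscle markers summed to 440.4 to 526.9 and 293.0 to 302.9 CPM in those groups. Immune, adipocyte, endothelial, Schwann cell and osteoblast lists stayed below 2 CPM. The part of these markers in the results below was not tested, and in bulk RNA a change in the share of a cell type cannot be told apart from a change in RNA per cell. Replicate 2 of labelled KO on day 1 stood apart from its replicates, with chi-square values of 58.8 and 58.4 per degree of freedom against 3.07 to 27.3 for other pairs, and the genotype differences of the members on day 1 are given with and without it.

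The sequences before 3 start sites are shown because they set the gene whose row was at or near 0 beside a pair that rose with differentiation. Each run is the 250 bases before a RefSeq start on GRCm38.p6, 5′ to 3′ on the gene's strand, and capitals mark E-boxes, the CANNTG motif that basic helix-loop-helix factors such as MyoD and myogenin bind. Dmd lies on chromosome X, plus strand, and its window is chrX:82948620-82948869. The window of Sgca is chr11:94976328-94976577 and that of Dag1 is chr9:108263959-108264208, both on the minus strand.
Dmd: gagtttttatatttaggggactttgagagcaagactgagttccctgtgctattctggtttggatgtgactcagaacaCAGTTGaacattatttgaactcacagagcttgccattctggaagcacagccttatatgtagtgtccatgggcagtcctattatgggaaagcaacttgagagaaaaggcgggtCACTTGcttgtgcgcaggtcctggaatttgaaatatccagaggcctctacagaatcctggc
Sgca: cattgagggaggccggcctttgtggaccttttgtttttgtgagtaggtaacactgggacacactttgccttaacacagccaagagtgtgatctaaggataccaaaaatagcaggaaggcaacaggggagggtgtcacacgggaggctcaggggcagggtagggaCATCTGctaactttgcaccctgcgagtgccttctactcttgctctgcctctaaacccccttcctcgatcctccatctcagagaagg
Dag1: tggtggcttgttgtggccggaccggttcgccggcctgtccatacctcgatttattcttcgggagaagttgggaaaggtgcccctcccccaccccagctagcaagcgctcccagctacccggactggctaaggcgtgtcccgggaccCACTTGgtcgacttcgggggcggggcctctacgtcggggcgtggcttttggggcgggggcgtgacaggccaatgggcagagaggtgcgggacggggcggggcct

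Dmd thus has 2 E-boxes in this window, Sgca 1 and Dag1 1. RefSeq windows were held for 7 of the 8 genes, 10 windows in all, of which 7 had an E-box, and Utrn had the most with 7 in its single window. The windows of Dag1 overlap and hold the same E-box, which is thus counted in each. A second Dmd start far into the gene, at position 85048295, had 0. Among all 32851 windows of this length 66.2% held an E-box, so its presence does not set these genes apart. The RUNX motif (TGTGGT or TGCGGT, either strand) was in 0 of the 10 windows and in 18.6% of all windows, and the MEF2 motif was in 0 of the 10 and in 0.508% of all. No match says only that these letters are not in the window.

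Dystrophin was not detectable above a few counts. Dmd (ENSMUSG00000045103.17, GENCODE position chrX:82948870-85206141 on GRCm38) had an estimated count of 0 in 17 of 23 libraries. On day 6 the libraries labelled KO had 4, 1 and 7 counts and the WT libraries had 0, 2 and 0. The only other counts were 3 in replicate 2 of labelled KO on day 0 and 1 in replicate 1 of labelled KO on day 1. All 23 libraries together held 18 counts of Dmd. A count of 0 allows up to 3 counts per library, or 0.126 to 0.14 CPM at these depths (counting error only), and 2 libraries of 23, both labelled KO on day 6, had more than 3 counts. The filter on low counts removed Dmd from the test. Fitted without the filter, its difference between genotypes on day 6 had an adjusted p = 0.188 by edgeR, and groups overlapped.

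Utrophin was present in all libraries. Its length-normalised level (TPM) was 11.32 to 34.86, against at most 0.12 TPM for Dmd in any library. In counts it held 50851 over all libraries where Dmd held 18. In each of the 23 libraries the Utrn row was thus far above the Dmd row, in both genotypes and on all days. A ratio of the pair could not be computed with a value of 0 in 17 libraries.

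The surroundings of the Dmd row were examined. Of its 12 nearest protein-coding X-chromosome neighbours in the tables, by start in RefSeq, Tmem47, Tab3 and Gk were counted at 575 to 1423, 225 to 323 and 65 to 267 per library, and the other 9 had at most 1 count in any library. The long transcripts of muscle genes were also counted, with titin (Ttn) at 198 to 6047, the ryanodine receptor (Ryr1) at 9 to 5458 and nebulin (Neb) at 0 to 1551. None of 7 older symbols of Dmd named a row. A further 8224 rows carry only a sequence accession and hold 2.64% to 7.41% of counts; they were not matched to genes here, and whether dystrophin reads were placed there was not tested. The Dmd values are therefore statements about the row of that symbol.

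Members that could be tested numbered 7 of 8, and percentages of all 14187 tested genes are given beside each count. A gene is said to have risen, fallen or differed when its Benjamini-Hochberg adjusted p was under 0.05 in edgeR's quasi-likelihood test over all tested genes. In WT, 6, 7 and 7 members were higher on days 1, 3 and 6 than on day 0, where 27.1%, 29.2% and 32.6% of all genes were higher. No member was lower, against 27.6%, 29% and 31.1% of all genes. In labelled KO, 6, 6 and 7 members were higher (27.2%, 30.4% and 36.6% of all genes) and 0 were lower (25.2%, 27.2% and 33.5%). The labelled KO count on day 1 was also 6 without the library that stood apart. In WT on day 1 the call of Utrn was lost without replicate 2 of day 0 (0.45, adjusted p = 0.0892), and that of Sntb1 without replicate 1 (1.03, adjusted p = 0.09). On day 6 all 7 genes were thus above day 0 in both genotypes, with median log2 changes of 1.14 in WT and 1.78 in labelled KO where the median over all genes was 0.05 in each.

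Between genotypes the members split. On day 0, 2 of 7 were higher in labelled KO (7.36% of all genes) and 1 lower (10.1%). On day 1, 1 was higher (22.9%) and 2 lower (19.2%), and 3 members also passed without the library that stood apart. The difference on day 1 did not pass for Utrn, Dag1 and Sntb1 with that library (0.13, 0.04 and -0.36; adjusted p = 0.498, 0.738 and 0.368) or without it (-0.02, 0.08 and -0.39; adjusted p = 0.922, 0.495 and 0.434). On day 3, 4 were higher (24%) and 2 lower (19.2%), and on day 6, 4 were higher (22%) and 1 lower (20.8%). Both counts on day 1, and the lower counts on each day, lie near the shares of all genes. The median log2 fold change over the 7 went from 0.06 on day 0 to -0.22, 0.37 and 0.77 on days 1, 3 and 6, beside medians over all genes between -0.00 and 0.04. The day 1 median was -0.04 without the library that stood apart. The change since day 0 itself differed between genotypes for 1 member on day 1, lower in labelled KO (2.64% of all genes were higher and 1.31% lower), for 1 on day 3, also lower (6.65% and 4.06%), and for 3 on day 6, all higher (7.54% and 5.42%). These comparisons share the day 0 libraries.

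**Figure D1:**
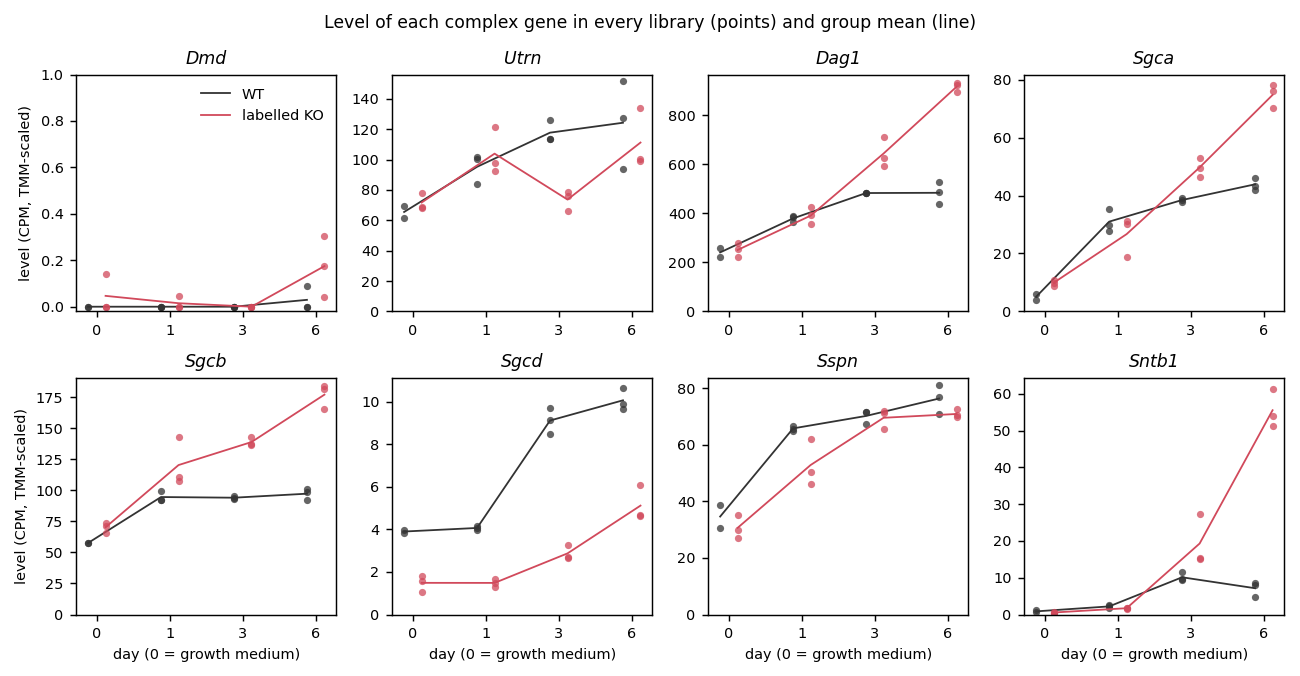
Level of each of the 8 genes in CPM (vertical axes, linear, a separate range for each gene) on days 0, 1, 3 and 6 (horizontal axis, evenly spaced), with a point for each library and a line through the group means, WT in black and labelled KO in red. Dmd stays below 0.31 CPM throughout, Dag1 and Sntb1 part between genotypes on days 3 and 6, and on every day Sgcb is higher and Sgcd lower in labelled KO.

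Utrn (ENSMUSG00000019820.11, chr10:12382188-12869365), which encodes the paralog, rose after serum withdrawal. In WT its level was 69.7 and 61.3 CPM on day 0 and 127, 94.0 and 152 CPM on day 6, a log2 change of 0.92 (SE 0.16, adjusted p = 2.9e-05). In labelled KO it went from 78.2, 68.0 and 69.1 CPM to 134, 99.3 and 101 CPM, a log2 change of 0.63 (SE 0.14, adjusted p = 0.000376). Day 6 libraries lay above day 0 libraries in both genotypes, and the genotypes overlapped on day 6. Day 3 was the only day on which utrophin differed: 114, 113 and 126 CPM in WT against 75.8, 78.9 and 66.3 CPM in labelled KO, with no overlap and a log2 fold change of -0.68 (SE 0.14, adjusted p = 0.000441). Day 3 in labelled KO was also the only later group that did not differ from day 0 (log2 change 0.04, adjusted p = 0.834). The difference between genotypes in the change from day 0 to day 3 was -0.81 (SE 0.21, adjusted p = 0.0148), and without replicate 2 of WT on day 0 it was -0.72 (adjusted p = 0.11). On the authors' TPM scale it was -0.82 and -0.86 with pseudocounts of 1 and 0.1, and missed the threshold by limma (adjusted p = 0.0532 and 0.0549).

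The mean length of the Utrn transcripts counted did not differ in the contrasts tested, between genotypes on each day and between days 6 and 0. The ratio of count to TPM, scaled to 576 genes with a single transcript, gave a mean length of 8.13 to 9.17 kb by group, where the longest coding Utrn transcript in GENCODE has 12382 bases. The ends of this range were labelled KO on day 3 (7.925 to 8.426 kb) and on day 1 (8.536 to 9.969 kb), which were not compared by a test. Among 5 members that could be measured in this way (Utrn, Dag1, Sgca, Sgcb and Sspn) the implied length differed in 0 of the 6 contrasts tested by limma, with 0 at an unadjusted p under 0.05. Of 10146 genes, 0.0591%, 0.108%, 0.246% and 0.779% differed in length between genotypes on days 0, 1, 3 and 6, and 2.21% and 4.36% between day 6 and day 0 in WT and labelled KO. For Utrn the day 6 difference between genotypes was -0.04 on the log2 scale (SE 0.051). Its day 1 difference was 0.07, and 0.01 without the library that stood apart. At this precision, no shift between the long and short transcripts of the gene was detectable in the contrasts tested.

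Dag1 (ENSMUSG00000039952.15, chr9:108204634-108263958), the laminin receptor at the centre of the complex, was the most abundant member per length in every group. Its length-normalised level was 69.4 ± 9.54 TPM (SD, n = 2) in WT and 69.3 ± 8.42 TPM (SD, n = 3) in labelled KO on day 0. On day 6 it was 159 ± 29.1 TPM and 274 ± 16.2 TPM (SD, n = 3 each). The genotypes matched on days 0 and 1 and parted later. On day 3 WT libraries had 484, 481 and 484 CPM and labelled KO libraries 713, 593 and 626 CPM, a log2 fold change of 0.42 (SE 0.09, adjusted p = 0.000604). On day 6 the values were 486, 437 and 529 CPM against 923, 931 and 895.5 CPM, a log2 fold change of 0.92 (SE 0.09, adjusted p = 1.46e-08). No library overlapped on either day. WT reached its day 6 level by day 3, while labelled KO climbed further, and the rise from day 0 to day 6 was larger in labelled KO by 0.86 on the log2 scale (SE 0.13, adjusted p = 7.41e-05). On the authors' TPM scale the day 3 difference was 0.26 with an adjusted p = 0.066 by limma.

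Sgca (ENSMUSG00000001508.15, chr11:94962791-94976327), alpha-sarcoglycan, is largely restricted to striated muscle and rose most steeply among the sarcoglycan members. WT libraries had 6.03 and 4.07 CPM on day 0, 27.8, 29.9 and 35.2 CPM on day 1 and 42.0, 46.2 and 43.4 CPM on day 6. Libraries labelled KO had 9.94, 10.8 and 8.90 CPM on day 0, 30.1, 18.8 and 31.1 CPM on day 1 and 70.0, 78.1 and 76.1 CPM on day 6. Labelled KO thus started higher, met WT on day 1 and ended higher. Against WT, the log2 fold change was 0.96 in growth medium (SE 0.19, adjusted p = 0.000901) and -0.22 a day later (adjusted p = 0.21), or -0.04 (adjusted p = 0.795) without the library that stood apart. By day 6 it was 0.77 (SE 0.13, adjusted p = 4.39e-05). On day 3 it was 0.37 (SE 0.13, adjusted p = 0.0267), a call that was lost when any 1 of 5 of the 6 day 3 libraries was omitted. On the authors' TPM scale it was 0.21 with pseudocount 1 and 0.22 with 0.1 (adjusted p = 0.219 and 0.246 by limma). The rise from day 0 to day 1 was smaller in labelled KO by 1.18 on the log2 scale (SE 0.24, adjusted p = 0.00535). That difference was -1.02 (adjusted p = 0.00142) without replicate 2 of labelled KO on day 1, and -0.93 (adjusted p = 0.0911) without replicate 2 of WT on day 0.

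Sgcb (ENSMUSG00000029156.11, chr5:73632749-73647790), beta-sarcoglycan, was expressed before differentiation began and was higher in labelled KO at every time point. On day 6 WT libraries had 98.6, 92.0 and 101 CPM and labelled KO libraries 165, 184 and 182 CPM. Ranges did not overlap on any of the 4 days. The log2 fold changes over days 0, 1, 3 and 6 were 0.29, 0.35, 0.56 and 0.86, with SE of 0.097 for the first and 0.085 for the others and adjusted p = 0.0444, 0.00211, 1.06e-05 and 1.67e-08. In 10 alternatives the growth-medium difference no longer passed, and the day 1 value was 0.18 (adjusted p = 0.0238) without the library that stood apart. Fitted with only the groups compared, the day 1 call was lost (0.33, adjusted p = 0.0877). WT held a level of 94.1 to 97.3 CPM in group mean from day 1 to day 6, and the rise to day 6 was larger in labelled KO by 0.58 on the log2 scale (SE 0.13, adjusted p = 0.0031).

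Sgcd (ENSMUSG00000020354.15, chr11:46896253-47988969), delta-sarcoglycan, ran the other way. WT libraries had 3.96 and 3.84 CPM on day 0 and libraries labelled KO 1.82, 1.59 and 1.07 CPM. On day 3 the levels were 8.49, 9.14 and 9.72 CPM against 2.67, 3.26 and 2.69 CPM, and on day 6 they were 9.88, 9.67 and 10.7 CPM against 4.68, 6.07 and 4.62 CPM. No library labelled KO reached the WT libraries of its day. The log2 fold changes were -1.38 (SE 0.19, adjusted p = 1.08e-05), -1.45 (SE 0.17, adjusted p = 6.05e-07), -1.66 (SE 0.15, adjusted p = 6.87e-09) and -0.97 (SE 0.14, adjusted p = 6.48e-06) on days 0, 1, 3 and 6. The day 1 value was -1.56 (adjusted p = 1.55e-06) without the library that stood apart. Both genotypes raised the gene by day 6, by 1.37 in WT and 1.78 in labelled KO on the log2 scale, and the difference between these rises did not pass the threshold (0.41, SE 0.24, adjusted p = 0.314). Counts were 23 to 254 per library, so this is the least deeply counted sarcoglycan among the members. The fibroblast list was also lower in labelled KO on all 4 days, at 21.6 to 28.5 CPM against 398 to 439 CPM on day 0, where Thy1, Dpt and Tcf21 were at 0 in every library and the other 2 of its 5 genes made up the sum. Smooth muscle markers were lower in labelled KO on all 4 days as well, without overlap, for example at 203.2 to 218.7 against 404.4 to 452.1 CPM on day 3. The part of both lists in the difference was not tested.

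Shares among the sarcoglycan transcripts differed as well. As a share of the summed TPM of Sgca, Sgcb, Sgcd and Sgce, delta-sarcoglycan took 8.80% ± 0.579 (SD, n = 3) in WT and 3.17% ± 0.436 (SD, n = 3) in labelled KO on day 6. Beta-sarcoglycan took 28.8% ± 2.04 and 37.1% ± 0.659 in the same groups, and alpha-sarcoglycan 29.8% ± 0.653 and 36.0% ± 0.582. Epsilon-sarcoglycan (Sgce), the broadly expressed relative of alpha, took 32.6% ± 2.01 and 23.7% ± 1.42. The sum of the 4 genes was 165 ± 13.6 TPM in WT and 213 ± 3.84 TPM in labelled KO. The day 6 libraries of the genotypes did not overlap in any of these 4 shares, which are given as a description without a test.

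Sspn (ENSMUSG00000030255.13, chr6:145931641-145965223), the small membrane protein that binds the sarcoglycans, differed between genotypes on day 1 only. It rose in WT from 38.7 and 30.6 CPM on day 0 to 77.0, 71.0 and 81.0 CPM on day 6, a log2 change of 1.14 (SE 0.12, adjusted p = 1.29e-08). In labelled KO it rose from 35.0, 29.7 and 27.2 CPM to 72.6, 70.4 and 69.7 CPM, a log2 change of 1.21 (SE 0.10, adjusted p = 3.48e-10). The genotypes overlapped on days 0, 3 and 6. On day 1 labelled KO lay below WT at 50.2, 62.0 and 46.3 CPM against 65.0, 66.6 and 65.7 CPM, a log2 fold change of -0.32 (SE 0.10, adjusted p = 0.0141). It was -0.47 (adjusted p = 0.000234) without the library that stood apart, and the call was lost without either of the other two libraries labelled KO, with adjusted p = 0.0504 and 0.0857. It was also lost with only the groups compared (-0.34, adjusted p = 0.0714).

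Sntb1 (ENSMUSG00000060429.12, chr15:55636388-55906949), a syntrophin that anchors channels and signalling enzymes through its PDZ domain, had the widest range of the 7 tested genes. On day 0 it was at 0.616 and 1.11 CPM in WT and 0.817, 0.42 and 0.417 CPM in labelled KO, from 9 to 24 counts. On day 3 WT libraries had 9.27, 9.66 and 11.4 CPM and labelled KO libraries 27.3, 15.1 and 15.5 CPM. On day 6 they had 7.99, 4.79 and 8.68 CPM against 54.0, 61.3 and 51.3 CPM. WT libraries thus stayed under 12 CPM while those labelled KO passed 50 CPM. On day 3 the log2 fold change between genotypes was 0.93 (SE 0.20, adjusted p = 0.000671). It grew to 2.95 by day 6 (SE 0.21, adjusted p = 5.74e-11), and neither day had any overlap. On days 0 and 1 the genotypes overlapped. The rise from day 0 to day 6 was 3.05 on the log2 scale in WT and 6.64 in labelled KO, a difference of 3.58 (SE 0.58, adjusted p = 0.000119). On day 3 summed myotube markers were also higher in labelled KO, at 3815.3 to 6827.7 CPM against 2147.3 to 2351.3 CPM in WT. They were already higher there on day 1, at 139.1 to 182.0 CPM against 45.98 to 85.68 CPM, where Sntb1 did not differ. The part of these markers was not tested.

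Between the 2 beta syntrophins, Sntb1 and its broadly expressed relative Sntb2, the first took a larger share on day 6 than on day 0 in both genotypes. On day 0, Sntb1 took 7.67% ± 4.02 (SD, n = 2) of their summed TPM in WT and 5.27% ± 2.10 (SD, n = 3) in labelled KO. On day 6 its share was 46.0% ± 3.43 (SD, n = 3) in WT and 89.8% ± 0.971 (SD, n = 3) in labelled KO. In WT the share was higher on day 3, at 59.4% ± 2.75 (SD, n = 3), than on day 6, without overlap. The sum of both genes on day 6 was 13.8 ± 4.19 TPM in WT and 49.96 ± 4.87 TPM in labelled KO. The shares overlapped between genotypes on day 0 and did not overlap on day 6.

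**Figure D2:**
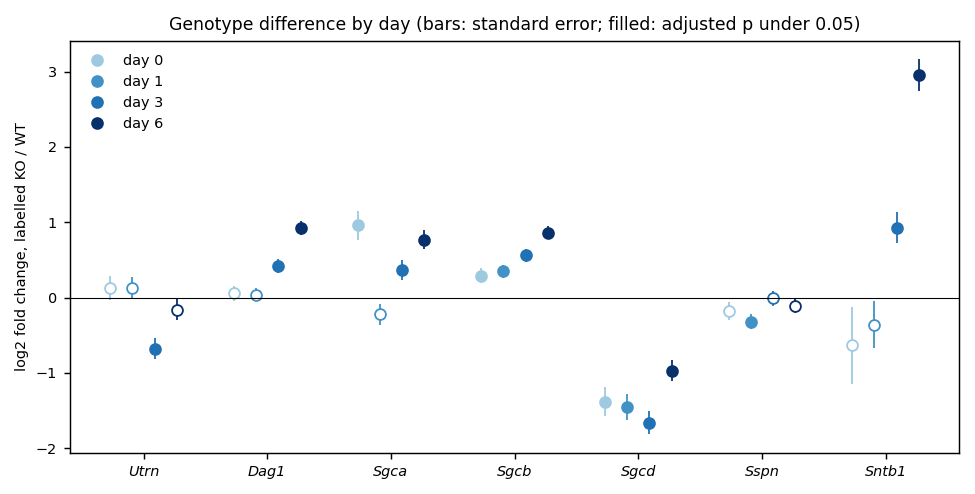
Log2 fold change of labelled KO over WT (vertical axis) for the 7 tested members on days 0, 1, 3 and 6 (light to dark), with bars for the standard error and filled points for an adjusted p under 0.05. Sgcd lies at -0.97 to -1.66 on all 4 days, Sgcb at 0.29 to 0.86, and Sntb1 moves from -0.63 on day 0 to 2.95 on day 6.

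**Figure D3:**
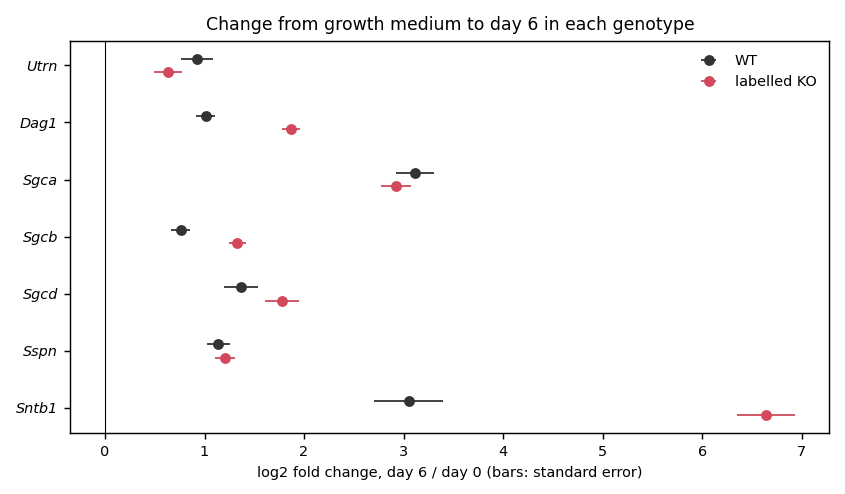
Log2 fold change from day 0 to day 6 (horizontal axis) for the 7 tested members, WT in black and labelled KO in red, with bars for the standard error. All 14 values are positive, from 0.63 (Utrn, labelled KO) to 6.64 (Sntb1, labelled KO).

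**Figure D4:**
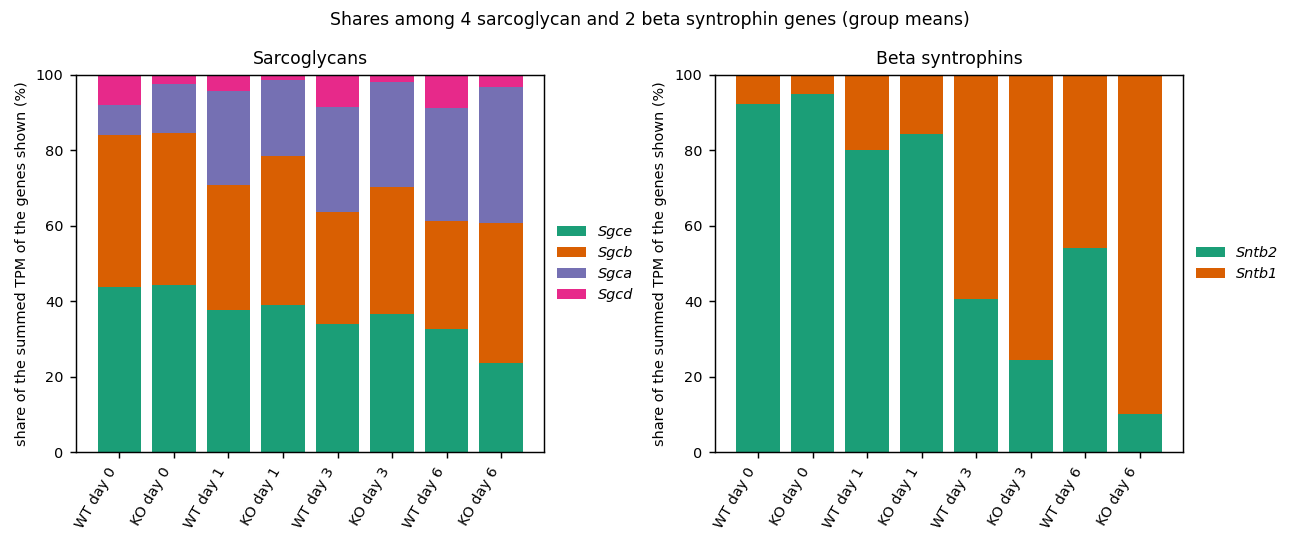
Share of the summed TPM of 4 sarcoglycan genes (left) and 2 beta syntrophin genes (right) held by each gene, in percent, as group means over 2 or 3 libraries for the 8 groups. Sgcd takes the smaller share in labelled KO on every day, and Sntb1 reaches 89.8% of the beta syntrophins in labelled KO on day 6.

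The members also differed in the order of their groups. For Dag1, Sgca, Sgcb and Sntb1 the group with the highest mean was labelled KO on day 6, whose libraries lay above those of the next group. For Utrn, Sgcd and Sspn it was WT on day 6, whose libraries overlapped with those of the next group. Across the 8 group means of log2 CPM, the Pearson correlation of Dag1 with Sntb1 was 0.977 and of Sgcb with Sgcd 0.079. The 5 genes with patterns most like Utrn among 10900 searched were Zhx3, Rnf214, Inpp4a, Dst and Phc3, with r of 0.979, 0.975, 0.968, 0.963 and 0.957 over the same 8 means. These correlations describe 8 group means that share the same days and genotypes, and no test was made. Genes like Dmd could not be searched for at its counts.

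Genes that work with the complex were described from a list of 15 partners, of which 12 could be tested and Sgcz, Sntg1 and Sntg2 could not. In labelled KO against WT, 2 of the 12 were higher and 1 lower on day 0, beside 7.36% and 10.1% of all genes. On day 1 it was 2 and 1 (22.9% and 19.2%), and 3 passed without the library that stood apart. On day 3 it was 4 and 2 (24% and 19.2%) and on day 6 it was 6 and 2 (22% and 20.8%). On days 1 and 3 these counts lie near the shares of all genes. The median log2 fold change on day 6 was 0.34 over the 12, beside 0.00 over all genes. Against day 0, 8 partners were higher on day 6 in each genotype, with 3 lower in WT and 2 in labelled KO (32.6% and 36.6% of all genes were higher, 31.1% and 33.5% lower).

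Caveolin-3 (Cav3), the muscle caveolin of the sarcolemma, had the largest difference among the partners on day 6. It was at 0 counts in every day 0 library, at 3.95, 3.28 and 3.14 CPM in WT on day 6 and at 30.5, 39.9 and 42.5 CPM in labelled KO, a log2 fold change of 3.44 (SE 0.20, adjusted p = 1.11e-10). Against the floor of 3 counts per library on day 0 its level on day 6 was at least 25.5-fold higher in WT and at least 272-fold higher in labelled KO. Its log2 fold change between genotypes was larger still on day 3, at 4.44 (SE 0.28, adjusted p = 6.1e-10), from 8, 13 and 7 counts in WT and 257, 185 and 151 in labelled KO. Agrin (Agrn), a matrix ligand of dystroglycan, had 86.0, 80.1 and 100.3 CPM against 233, 223 and 212 CPM (1.33, SE 0.10, adjusted p = 3.54e-10). Lama2, the laminin chain that dystroglycan binds in muscle, had 13.2, 14.1 and 16.3 CPM against 37.8, 34.1 and 30.0 CPM (1.23, SE 0.14, adjusted p = 2.45e-07). Each of the 3 had no overlap between genotypes on day 6.

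Lama2 was also higher in labelled KO on the earlier days, with log2 fold changes of 1.72, 1.18 and 1.38 on days 0, 1 and 3. The other partners moved less on day 6. Ank2, Sync and Dtna were also higher on day 6 (0.98, 0.82 and 0.39), and Ank2 was lower on day 3 (-0.56, SE 0.20, adjusted p = 0.0257). For Ank2 the change from day 0 to day 3 differed between genotypes by -0.93 (SE 0.29, adjusted p = 0.0376). On day 6 Sntb2 and Dtnb were lower (-0.40 and -0.30). Drp2, a dystrophin-related protein gene, was lower on days 0, 1 and 3 (-0.79, -0.77 and -0.29). Its change from day 0 to day 3 also differed between genotypes, higher in labelled KO by 0.50 (SE 0.12, adjusted p = 0.0103). The neuronal nitric oxide synthase gene Nos1, whose product syntrophin anchors, had 2 to 53 counts per library and differed on day 1 only (2.04, SE 0.49, adjusted p = 0.00171). Without the library that stood apart the day 1 differences of Lama2, Drp2 and Nos1 kept their direction and passed the threshold. The change from day 0 to day 6 differed between genotypes for Agrn, Drp2 and Sync (1.34, 0.78 and 0.56).

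The enzymes that build the laminin-binding sugar chain of dystroglycan included genes that were higher and genes that were lower in labelled KO. All 17 listed could be tested. In labelled KO, 0 of the 17 were higher and 2 lower on day 0 (7.36% and 10.1% of all genes). On day 1 it was 1 and 3 (22.9% and 19.2%), with 5 in all without the library that stood apart. On day 3 it was 3 and 5 (24% and 19.2%) and on day 6 it was 2 and 2 (22% and 20.8%), with a median on day 6 of -0.12. With each library left out in turn, the 8 called on day 3 came to 4 to 5 and the 4 on day 6 to 2 to 3. By limma on the TPM scales the day 6 count was 9 and 8. The 3 called genes with the largest difference on day 6 were Dpm1 and Dpm3, subunits of dolichol-phosphate mannose synthase, and Pomt2, an O-mannosyltransferase that starts the chain. Dpm1 had 2.32, 2.53 and 3.02 CPM in WT and 3.13, 4.99 and 6.97 CPM in labelled KO (log2 fold change 0.94, SE 0.31, adjusted p = 0.0185). Dpm3 had 21.7, 23.2 and 16.9 CPM against 14.5, 13.3 and 11.5 CPM (-0.65, SE 0.16, adjusted p = 0.00153). Pomt2 had 30.2, 35.7 and 37.9 CPM against 27.2, 23.8 and 24.7 CPM (-0.46, SE 0.087, adjusted p = 0.000164). Labelled KO was above WT for Dpm1 and below it for Dpm3 and Pomt2, with no overlap in any of the 3. From day 0 to day 6, 4 were higher and 5 lower in WT, and 5 and 6 in labelled KO, where 32.6% and 36.6% of all genes were higher and 31.1% and 33.5% lower. These counts do not set the list apart from all genes.

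**Figure D5:**
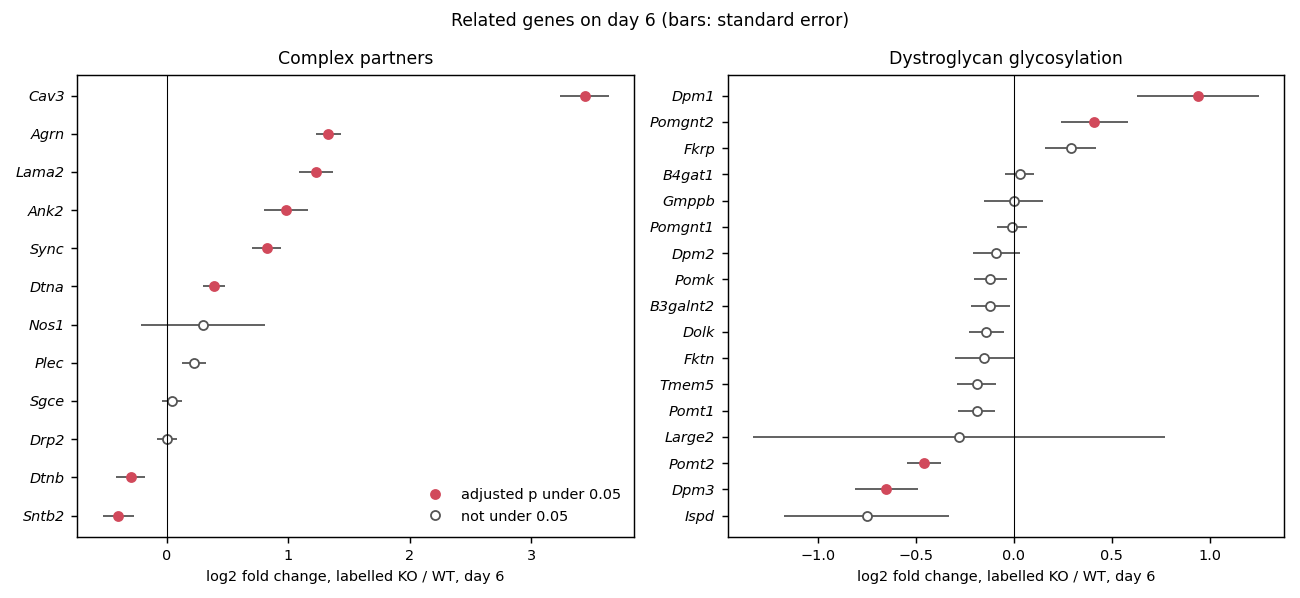
Log2 fold change of labelled KO over WT on day 6 (horizontal axes, different ranges) for the 12 tested partners of the complex (left) and the 17 dystroglycan glycosylation genes (right), with bars for the standard error and filled points for an adjusted p under 0.05. Partners extend to 3.44 (Cav3), while the glycosylation genes lie between -0.75 and 0.94.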

How the data were processed

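Per the submitters' processing notes, Bowtie2, RSEM and mm10 were used; versions, annotation and use of strand are not given in the sources used here. The authors deposited estimated counts per gene as whole numbers (rounding changed 0 values) and TPM, which the authors scaled for length and depth. All columns were matched to samples by name.

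Counts were tested with edgeR 4.0.16 in R 4.3.3: TMM scaling, filterByExpr (minimum count 10, minimum total 15; 14187 of 32793 rows kept), 1 group-means model over 23 libraries, 13 contrasts, Benjamini-Hochberg adjustment within each contrast, threshold 0.05. The SE of an edgeR log2 fold change is its absolute value divided by the square root of its quasi-likelihood F statistic. A fold against a group at 0 used a floor of 3 counts per library. Implied transcript length, the count divided by TPM in genes with at least 50 counts and 1 TPM in every library, was tested with limma 3.58.1. Alternatives were RLE scaling, library size alone, DESeq2 1.42.0, the filter dropped or raised to a mean of 50 counts, limma on log2 TPM with pseudocounts of 1 or 0.1, only the groups compared, a replicate block, and each library left out. The fits were also run on simulated data, with changes in labelled KO on day 6 alone and no library that stood apart. The simulated counts had the same dispersion for every gene. That run is not used here as evidence for the results.

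The 8 members and the lists were chosen with earlier results of these data known; named genes are the members, genes of both lists with the 3 most changed on day 6 in full, and the 5 genes most like Utrn. Some related genes are not reported here. The planned ratio of Dmd to Utrn could not be computed at counts of 0. Sequences are RefSeq's, positions GENCODE M21's on GRCm38, the assembly of mm10.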

Additional observations from a re-analysis of the deposited data

Results flagged for a closer look

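For 5 members the change since day 0 differed between genotypes in edgeR's interaction test. Sgca rose less from day 0 to day 1 in labelled KO (difference -1.18, SE 0.24, adjusted p = 0.00535), from a day 0 level that was higher there. The difference missed the threshold without replicate 2 of WT on day 0 (adjusted p = 0.0911) and with only the groups compared (adjusted p = 0.0555). Utrn rose to day 3 in WT (0.85) but did not differ from day 0 in labelled KO (0.04). The difference was -0.81 (SE 0.21, adjusted p = 0.0148), with 3 of 3 libraries labelled KO below all 3 of WT on that day. That difference missed the threshold without replicate 2 of WT on day 0 (adjusted p = 0.11) and by limma on the TPM scales (adjusted p = 0.0532 and 0.0549). Rises to day 6 were larger in labelled KO for Dag1 (0.86, SE 0.13, adjusted p = 7.41e-05), Sgcb (0.58, SE 0.13, adjusted p = 0.0031) and Sntb1 (3.58, SE 0.58, adjusted p = 0.000119). In the same libraries the summed myotube markers on day 6 were 1859.5 to 2157.0 CPM in WT and 10330.7 to 12894.1 CPM in labelled KO, and their part in these differences was not tested.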

How the results depend on the processing

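Of 1442 recomputed values of the members, 1403 kept their side of the threshold, 30 lost the call and 9 gained it. Of the 1403, 26 changed sign, all in values that passed in neither fit, and no called value changed sign. Of 2270 for list genes, 73 changed sign in the same way, and 2 changed sign with a call in 1 of the fits: B4gat1 between genotypes on day 6 (0.03) became -0.22 and -0.23 with log2(TPM + 1) and log2(TPM + 0.1). On these TPM scales the median of all genes shifted by up to -0.15 between genotypes on day 3 and by up to 0.18 in WT since day 0.

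Members that differed between genotypes on day 1 went from 3 to 1 with only the groups compared. In the interaction, 1 member on day 1 became 0 with only the groups compared. The 1 on day 3 became 3 without a filter, 3 with DESeq2, 0 and 2 on the TPM scales and 2 with only the groups compared. Calls gained there were Sgca, lower in labelled KO (-0.62 without a filter), and Sntb1, higher (1.53 without a filter). For glycosylation genes, 2 on day 0 became 0 without a filter and 4 with only the groups compared, 4 on day 1 became 2 with only the groups compared, 4 on day 6 became 9 and 8 on the TPM scales, and 0 in the day 6 interaction became 2 with log2(TPM + 1). The cause was not tested.

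With each library left out in turn, partners that changed in WT from day 0 to day 6 (11) came to 7 to 10, the 7 without replicate 1 of WT on day 0. Glycosylation genes came to 0 to 1 on day 0, 4 to 5 on day 3 and 2 to 3 on day 6, the 2 without replicate 3 of labelled KO. The members' interaction came to 0 to 1 on day 1 and 0 to 2 on day 3, at 0 without replicate 2 of WT on day 0.

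Same-numbered replicates showed correlated deviations of -0.24 to 0.116, so the numbers were not taken as pairs. With the replicate block the glycosylation count on day 3 went from 8 to 5, and among members the call of Sgcb on day 0 was lost (0.29, adjusted p = 0.0599). The ratio of Dmd to Utrn was not run. Depth limits Dmd, Sgcd and day 0 Sntb1.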
